A study of Mus musculus with 15 samples.

Results

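Enteric neuron genes were followed in the ileum, the last stretch of the small intestine, of 15 adult mice whose epithelium had been given, or not given, a deletion of the transcription factor gene Rfx6. The set held 8 of the 37620 gene identifiers of the count tables, taken by symbol: Elavl4 (ENSMUSG00000028546), Uchl1 (ENSMUSG00000029223), Tubb3 (ENSMUSG00000062380), Prph (ENSMUSG00000023484), Ret (ENSMUSG00000030110), Nos1 (ENSMUSG00000029361), Chat (ENSMUSG00000021919) and Vip (ENSMUSG00000019772). All 8 were found in all 15 libraries. Animals labelled mutant were Rfx6f/f Vilin-CreERT2, in which both Rfx6 alleles carry loxP sites and a tamoxifen-activated Cre recombinase comes from the Villin promoter, whose activity lies in gut epithelial cells and not in neurons. Control animals carried loxP sites in Rfx6 and no Cre. All groups are described as having received tamoxifen by gavage as adults. Ileum was taken 8 days later from 3 Rfx6f/f controls and 4 mutants, and 3 months later from 4 controls, of which 2 were Rfx6f/f and 2 were Rfx6f/+, and 4 mutants. Each time point was deposited as its own table, so time and cohort cannot be told apart.

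The enteric nervous system is a network of neurons and glia in the gut wall that lies outside the epithelium, in a plexus between the muscle layers and another in the submucosa. Its motor neurons fall into an excitatory class that releases acetylcholine and an inhibitory class that releases nitric oxide and vasoactive intestinal peptide. The receptor kinase RET and its ligand GDNF drive the precursors of these cells into the developing gut, and RET remains on adult enteric neurons. RNA of the whole ileum holds neuron transcripts as a small share among those of epithelium and muscle, and in such bulk RNA fewer cells of a type and less RNA per cell cannot be told apart.

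Library totals, in units of 1000000 counts, were 30.5 to 54.5 at 8 days and 26.1 to 36.3 at 3 months. Rfx6, the targeted gene, did not have a lower level in the mutants' libraries. It, in counts per 1000000 after TMM scaling of the library sizes (CPM), stood at 1.37 to 1.65 in the controls and 1.47 to 2.098 in the mutants at 8 days, a log2 fold change of 0.19 (SE 0.18, edgeR quasi-likelihood test with Benjamini-Hochberg adjusted p = 0.867). At 3 months it was 1.46 to 1.74 in the controls and 2.26 to 3.34 in the mutants, a log2 fold change of 0.72 (SE 0.17, edgeR adjusted p = 0.0347). The call at 3 months was lost when any of 6 of the 8 libraries was left out, with adjusted p-values up to 0.0972, and with Rfx6f/f controls alone (0.67, adjusted p = 0.239) or the smooth muscle score as a covariate (0.84, adjusted p = 0.0828). Counts are over the whole gene, so they do not check the deleted exons, and directions below are those of the libraries as labelled. Marker lists for other cells are given here, and their part in the results below was not tested. Of 12 enteroendocrine genes, 3 were called lower and 0 higher at 8 days, with 4 of 12 above 0. At 3 months the list split, with 6 called lower and 4 called higher and its summed level at 227 to 362 CPM in controls and 333 to 421 in mutants. Its mean log2 CPM went the other way, at 3.21 ± 0.23 (SD, n = 4) in controls and 1.17 ± 0.22 (n = 4) in mutants. Of 6 immune genes, 4 were above 0 at 8 days (median 0.54, 0 called) and 0 at 3 months (median -0.99, 2 called lower). Of 8 epithelial genes, 0 were above 0 at 8 days (median -0.12) and 1 at 3 months (median -0.19), with 0 called.

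The sequences just upstream of an annotated start of Vip, Prph and Nos1 are shown because they hold letters of well-known motifs. The Nos1 window holds letters that factors of the Rfx6 family are known to bind. RefSeq start sites on GRCm38.p6 were available for 7 of the 8 members, all but Ret. The 250 bases before each start are given 5′ to 3′ on the gene's strand, Vip at chr10:5638968-5639217, Prph at chr15:99054924-99055173 and Nos1 at chr5:117866589-117866838, all on the plus strand. Capitals mark matches, on either strand, to TATAAA (the TATA box), TGACGTC (the cAMP response element without its last base) and GTTGCC (a half-site bound by RFX factors).
Vip: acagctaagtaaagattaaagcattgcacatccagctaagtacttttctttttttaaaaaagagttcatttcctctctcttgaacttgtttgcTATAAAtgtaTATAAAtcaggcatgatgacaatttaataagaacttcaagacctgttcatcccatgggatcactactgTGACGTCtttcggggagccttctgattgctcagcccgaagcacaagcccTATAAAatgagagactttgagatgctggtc
Prph: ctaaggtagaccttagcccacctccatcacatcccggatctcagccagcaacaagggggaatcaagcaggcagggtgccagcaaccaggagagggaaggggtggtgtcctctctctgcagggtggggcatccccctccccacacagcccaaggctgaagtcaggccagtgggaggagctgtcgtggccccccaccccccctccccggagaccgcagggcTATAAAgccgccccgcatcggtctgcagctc
Nos1: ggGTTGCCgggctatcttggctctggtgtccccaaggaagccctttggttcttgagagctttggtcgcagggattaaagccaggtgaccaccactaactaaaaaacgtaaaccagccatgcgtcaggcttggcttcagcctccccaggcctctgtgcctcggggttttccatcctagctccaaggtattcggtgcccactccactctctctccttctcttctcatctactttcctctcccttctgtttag
In Vip the cAMP response element letters began 79 bases before the start and TATAAA began 157, 147 and 30 bases before it. Prph held TATAAA 31 bases before its start. Nos1 held GTTGCC 248 bases before its start and was the single member with a match to those letters. Of all 32851 windows of the same length, 12.4% held TATAAA, 2.78% held TGACGTC and 10.4% held GTTGCC. These matches are letters in a window and not measured sites. Whether these starts are used in the ileum was not tested. The Nos1 window ends in a stretch rich in c and t followed by ag, as the end of an intron does, so it may not be a promoter.

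In control ileum the members covered a wide range of levels when put on a scale per kilobase of exon (CPM per kb). At 8 days Prph stood at 5.10 ± 1.07 CPM per kb (SD, n = 3), Uchl1 at 4.85 ± 1.07, Tubb3 at 4.56 ± 1.43 and Vip at 4.37 ± 0.41. The SDs of these 4 overlap, so their order is not resolved. Ret followed at 2.75 ± 0.33, and Nos1 at 0.88 ± 0.16, Elavl4 at 0.56 ± 0.10 and Chat at 0.38 ± 0.10 made up the low end. In the 3-month controls (n = 4) Vip was the highest per kilobase at 6.41 ± 1.03, ahead of Uchl1 at 3.57 ± 0.44, Prph at 2.99 ± 0.06, Tubb3 at 2.57 ± 0.07 and Ret at 1.48 ± 0.06. Elavl4 at 0.51 ± 0.08, Nos1 at 0.30 ± 0.07 and Chat at 0.11 ± 0.05 were again the lowest, with Elavl4 now above Nos1. Chat rested on few reads, 8 to 27 counts in the 3-month controls and 50 to 123 in the 8-day controls, while Vip had 501 to 844 and 403 to 809.

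None of the 8 members was called at either time point. At 8 days 0 of 8 passed an adjusted p of 0.05 in edgeR, where 0.0915% of the 17493 genes tested did, and 0 of 8 had groups that did not overlap, where 7.68% of all genes did. At 3 months 0 of 8 were called, where 9.28% of 17085 genes were, and again 0 of 8 separated the groups, where 19.4% of all genes did. At an unadjusted p under 0.05 the count was 1 of 8, Ret, at each time, beside 8.8% and 29.4% of all genes. DESeq2 and limma-voom also called 0 of 8 at both times. The direction of the estimates differed: at 8 days 7 of 8 were below 0 with a median log2 fold change of -0.25 (all genes: 50.7% below 0, median -0.00), and at 3 months 7 of 8 were above 0 with a median of 0.28 (all genes: 51.2% above 0, median 0.01). Vip was the exception both times.

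**Figure D1:**
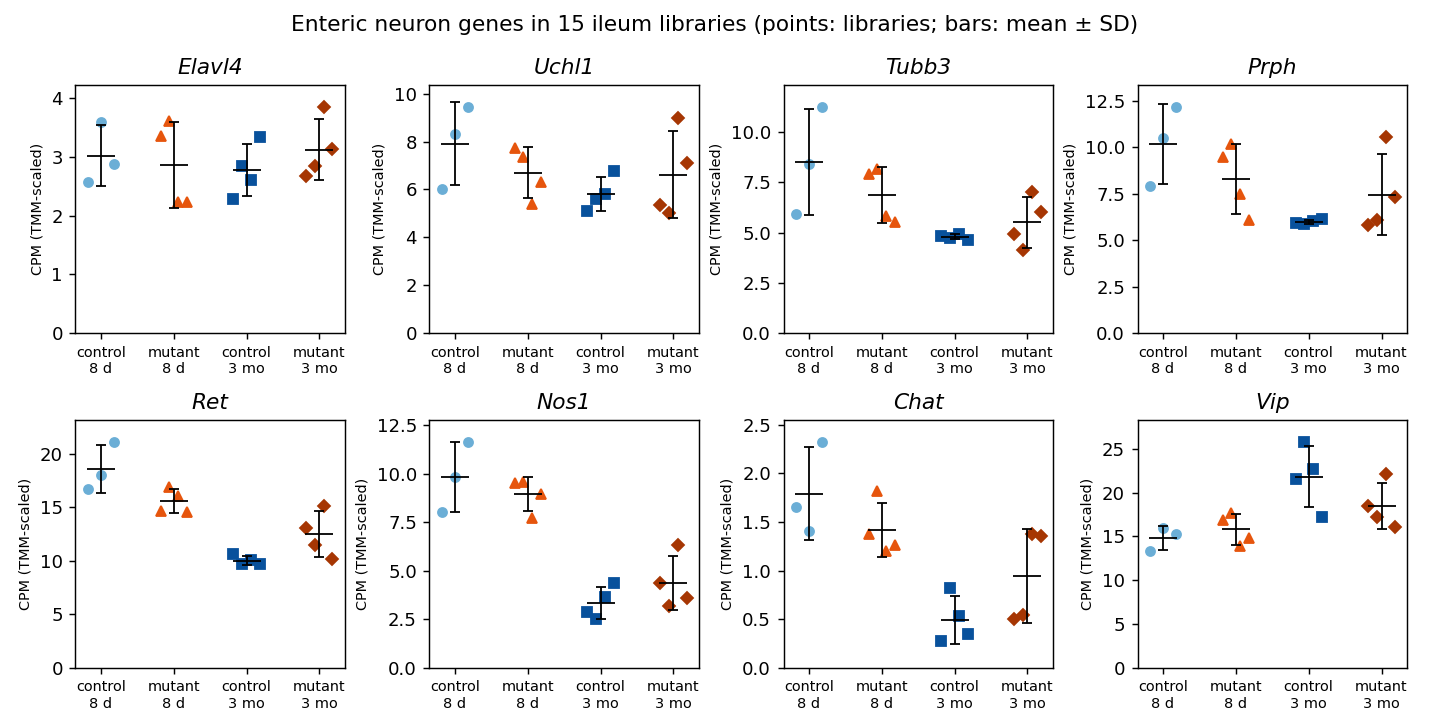
Level (CPM, linear axis from 0) of each of the 8 enteric neuron genes in every library, by group, with points for libraries and bars for the mean ± SD (n = 3 for 8-day controls, 4 for the other groups). Control and mutant points overlap in every panel at both times, and mutant replicate 3 is the highest of the 3-month mutants in all 8 panels.

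Among the pan-neuronal members, Elavl4 encodes an RNA-binding Hu protein used to stain enteric neuron cell bodies. It stood at 2.58, 3.60 and 2.88 CPM in the 8-day controls and at 3.36, 3.62, 2.23 and 2.23 in the mutants. At 3 months it was 2.29, 2.84, 2.61 and 3.34 CPM in controls and 2.67, 2.85, 3.84 and 3.13 in mutants. The groups overlapped both times, and the log2 fold changes were -0.08 (SE 0.23) and 0.19 (SE 0.17), with edgeR adjusted p-values of 0.974 and 0.479. The sign at 8 days was the least settled of the members, turning positive without control replicate 2 (0.07), mutant replicate 3 (0.03) or mutant replicate 4 (0.02), and standing at -0.21 without mutant replicate 2. The 3-month value was 0.07 without mutant replicate 3 and 0.30 without control replicate 4.

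Uchl1 encodes the ubiquitin hydrolase also known as PGP9.5, another general stain for enteric neurons. It stood at 6.01, 8.33 and 9.43 CPM in the 8-day controls and at 7.73, 7.37, 5.38 and 6.30 in the mutants. At 3 months the controls had 5.09, 5.59, 5.83 and 6.79 CPM and the mutants 5.35, 5.02, 8.97 and 7.09. Mutant replicates 3 and 4 lay above every 3-month control and the other mutants did not. The log2 fold changes were -0.25 (SE 0.19, edgeR adjusted p = 0.812) and 0.20 (SE 0.19, edgeR adjusted p = 0.520). With 1 library left out they ran from -0.41 (control replicate 1) to -0.11 (control replicate 3) at 8 days and from 0.014 (mutant replicate 3) to 0.31 (mutant replicate 2) at 3 months. An antisense gene, Uchl1os, shares 295 bases with its exons, and without a stated strand setting reads of the 2 cannot be told apart.

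Tubb3, the neuronal class of beta-tubulin, was at 5.91, 8.41 and 11.2 CPM in the 8-day controls and 7.94, 8.17, 5.81 and 5.53 in the mutants. The 3-month controls were tight, at 4.85, 4.73, 4.95 and 4.65 CPM, and the mutants spread around them at 4.91, 4.13, 7.003 and 6.01. The log2 fold changes were -0.32 (SE 0.23, edgeR adjusted p = 0.804) and 0.22 (SE 0.16, edgeR adjusted p = 0.394). Leaving out control replicate 1 gave -0.52 and control replicate 3 -0.067 at 8 days, and leaving out mutant replicate 3 gave 0.079 and mutant replicate 2 0.33 at 3 months. The 3-month control range thus sat inside that of the mutants.

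Prph encodes peripherin, an intermediate filament of peripheral neurons. Its 8-day values were 7.89, 10.5 and 12.1 CPM in controls and 9.50, 10.2, 7.50 and 6.06 in mutants. At 3 months the controls held 5.91, 5.86, 6.02 and 6.13 CPM and the mutants 5.82, 6.11, 10.6 and 7.30. The coefficient of variation was 2.03% in these controls and 29.1% in the mutants. The log2 fold changes were -0.30 (SE 0.21, edgeR adjusted p = 0.790) and 0.33 (SE 0.18, edgeR adjusted p = 0.260). They were -0.45 without control replicate 1 and -0.15 without control replicate 3, and 0.11 without mutant replicate 3 and 0.44 without mutant replicate 1.

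Ret, the receptor kinase for GDNF-family ligands, had the smallest unadjusted p of the 8 at each time. It stood at 16.6, 17.998 and 21.1 CPM in the 8-day controls and at 14.7, 16.9, 16.03 and 14.6 in the mutants. At 3 months it was 10.6, 9.74, 10.0 and 9.65 CPM in controls and 13.1, 11.5, 15.1 and 10.2 in mutants. A single library kept the groups from separating each time: control replicate 1 fell below mutant replicate 2 at 8 days, and mutant replicate 4 below control replicate 1 at 3 months. The log2 fold change was -0.26 at 8 days (SE 0.11, 95% interval -0.50 to -0.02, unadjusted p = 0.0377, edgeR adjusted p = 0.514). At 3 months it was 0.33 (SE 0.12, 95% interval 0.05 to 0.61, unadjusted p = 0.0244, edgeR adjusted p = 0.114). Without control replicate 3 the 8-day value was -0.16, and without mutant replicate 3 the 3-month value was 0.22.

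Nos1, the neuronal nitric oxide synthase of inhibitory motor neurons, was at 8.03, 9.81 and 11.6 CPM in the 8-day controls and 9.52, 9.55, 7.71 and 8.96 in the mutants. At 3 months it was 2.87, 2.53, 3.64 and 4.34 CPM in controls and 4.34, 3.20, 6.33 and 3.62 in mutants. The log2 fold changes were -0.14 (SE 0.15, edgeR adjusted p = 0.889) and 0.41 (SE 0.25, edgeR adjusted p = 0.309). The 8-day value was -0.27 without control replicate 1 and -0.0042 without control replicate 3, and the 3-month value was 0.17 without mutant replicate 3 and 0.56 without control replicate 4. Between the cohorts, every 8-day library, control or mutant, was above every 3-month library, with medians of 9.52 and 3.63 CPM. The share of all genes that separate the cohorts in this way was not computed.

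Vip encodes vasoactive intestinal peptide, the other inhibitory transmitter, which also drives secretion. It was at 13.3, 15.99 and 15.3 CPM in the 8-day controls and 16.8, 17.7, 13.9 and 14.8 in the mutants. The 3-month controls were at 21.6, 25.8, 22.7 and 17.3 CPM and the mutants at 18.5, 17.2, 22.1 and 16.1. Unlike the other 7 members, its estimate was above 0 at 8 days (log2 fold change 0.09, SE 0.12, edgeR adjusted p = 0.928) and below 0 at 3 months (-0.22, SE 0.13, edgeR adjusted p = 0.298). Single left-out libraries moved it to between 0.012 (control replicate 1) and 0.15 (control replicate 2) at 8 days and to between -0.32 (mutant replicate 3) and -0.14 (control replicate 2) at 3 months. With Rfx6f/f controls alone the 3-month Vip value was -0.065 (SE 0.15, adjusted p = 0.850). The groups overlapped both times.

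Chat encodes choline acetyltransferase, which makes acetylcholine in excitatory enteric neurons and is also known in tuft cells, a chemosensory cell of the epithelium. It stood at 1.65, 1.40 and 2.32 CPM in the 8-day controls and 1.38, 1.82, 1.203 and 1.27 in the mutants. At 3 months it was 0.27, 0.82, 0.54 and 0.34 CPM in controls and 0.50, 0.54, 1.37 and 1.36 in mutants. Mutant replicates 3 and 4 were above all controls, while replicates 1 and 2 lay among them. The log2 fold changes were -0.34 (SE 0.23, edgeR adjusted p = 0.773) and 0.94 (SE 0.45, 95% interval -0.09 to 1.97, edgeR adjusted p = 0.203), the latter the widest interval of the 8. Without control replicate 3 the 8-day value was -0.10, and the 3-month value was 0.69 without mutant replicate 3 and 1.31 without control replicate 2. With Rfx6f/f controls alone Chat stood at 1.61 (SE 0.58, adjusted p = 0.241). Beside this, the mean log2 CPM of the 9 tuft cell genes tested was 2.79 and 3.04 in those same mutant replicates 3 and 4, against 0.70 to 2.097 in the other 3-month libraries and 2.97 to 3.35 at 8 days. Of these tuft genes, 9 of 9 were above 0 at 3 months and 2 were called higher, Alox5 (log2 fold change 1.24, edgeR adjusted p = 0.0394) and Ptgs1 (0.70, edgeR adjusted p = 0.0109). The Alox5 call was lost when any of 6 of the 8 libraries was left out, with adjusted p up to 0.102, and with limma-voom (adjusted p = 0.0616), the muscle covariate (0.59, adjusted p = 0.174) and Rfx6f/f controls alone (1.33, adjusted p = 0.220). The Ptgs1 call was lost with the muscle covariate (0.60, adjusted p = 0.0783) and with Rfx6f/f controls alone (0.78, adjusted p = 0.119).

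**Figure D2:**
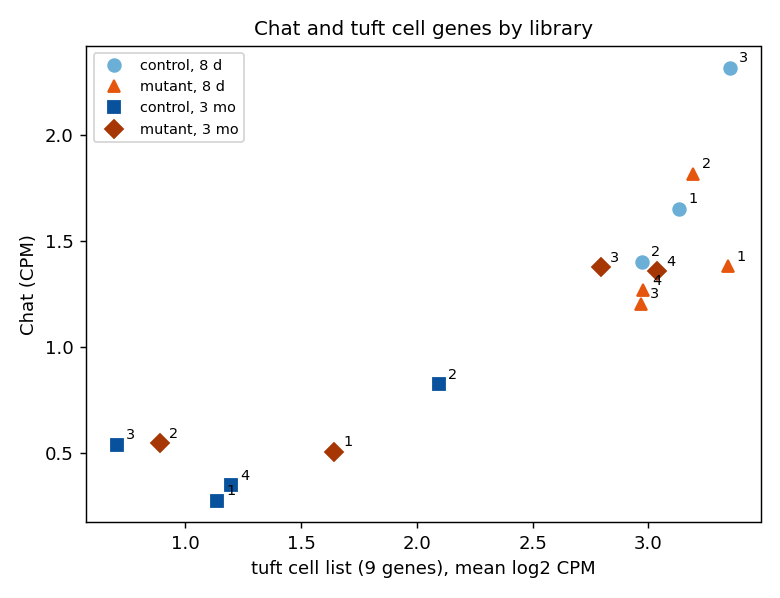
Chat level (CPM, linear axis) against the mean log2 CPM of the 9 tuft cell genes in each of the 15 libraries, with replicate numbers beside the points. At 3 months mutant replicates 3 and 4 sit apart from the other 6 libraries on both axes, beside the 8-day libraries.

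Within the 3-month cohort, Chat (log2 CPM) and the tuft score had Pearson r = 0.848 (n = 8, exact permutation p = 0.0152, adjusted over 2 cohorts 0.0304) and Spearman rho = 0.619 (permutation p = 0.115, adjusted 0.115). Without mutant replicates 3 and 4 the r was 0.459 (permutation p = 0.383), so the relation rests on those 2 libraries. Within the 8-day cohort r was 0.690 (n = 7, exact permutation p = 0.0972, adjusted 0.0972) and rho 0.714 (permutation p = 0.0881, adjusted 0.115). Without the 2 libraries farthest from the median tuft score r was 0.951 (n = 5, permutation p = 0.05, adjusted 0.1). This relation was chosen after the values were seen, and it takes controls and mutants together, not centred by group. What share of the Chat counts came from neurons was not tested.

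The 2 time points were compared directly by the difference of the genotype effects, fitted over all 15 libraries. None of the 8 members was called (0 of 8 beside 0.785% of 17959 genes; 2 of 8 at an unadjusted p under 0.05, Ret and Chat, beside 16.6%). The estimate was above 0, meaning a more positive effect at 3 months, for 7 of 8 (48.1% of all genes), with a median of 0.52 against -0.01 for all genes. Ret differed by 0.58 (SE 0.17, edgeR adjusted p = 0.0919), Chat by 1.26 (SE 0.54, edgeR adjusted p = 0.247) and Vip by -0.33 (SE 0.19, edgeR adjusted p = 0.403). For Ret the outcome depended on the tool and on 1 library: DESeq2 called it (0.60, adjusted p = 0.0189), and so did edgeR without mutant replicate 4 of 3 months (0.65, adjusted p = 0.0454).

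The members also differed between the cohorts in level, described without a test. The ratio of the 8-day to the 3-month median was 2.62 for Nos1, 2.59 for Chat, 1.63 for Tubb3, 1.60 for Ret, 1.57 for Prph, 1.29 for Uchl1, 1.01 for Elavl4 and 0.761 for Vip. Nos1 was the single member whose libraries did not overlap between the cohorts, and the share of all genes that do so was not computed.

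Some libraries were high for most of the members at once. At 3 months mutant replicate 3 had the highest value of its group for 8 of 8 members and the highest of all 8 libraries for 7 of 8, with Vip highest in control replicate 2. The 3-month controls showed no such order: replicate 4 was the highest of them for 4 members and the lowest for 3. Without mutant replicate 3 the 3-month median of the members dropped from 0.28 to 0.10, with 7 of 8 still above 0. At 8 days control replicate 3 was the highest library for 6 of 8 members and mutant replicate 2 for the other 2. Without that control the 8-day median went from -0.25 to -0.10.

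Markers of the muscle wall were highest in some of these libraries. The 11 smooth muscle genes averaged 7.59 log2 CPM in mutant replicate 3 of 3 months, against 6.72 to 7.25 in the other 7 libraries of that cohort. At 8 days control replicate 3, highest for 6 of 8 members, was at 7.57, below mutant replicates 1 at 7.76 and 2 at 7.85. The group means were 7.35 ± 0.26 (SD, n = 3) in controls and 7.58 ± 0.27 (n = 4) in mutants at 8 days, and 6.82 ± 0.12 and 7.15 ± 0.35 (n = 4 each) at 3 months, with overlapping groups both times. All 11 smooth muscle genes had estimates above 0 at 3 months (median 0.37) and 9 of 11 at 8 days (median 0.15), and 0 of 11 were called at either time. Enteric glia genes were above 0 for 8 of 8 at 3 months (median 0.36) and for 1 of 8 at 8 days (median -0.14), with 0 called, and their mean was highest in mutant replicate 3 too, at 0.80 log2 CPM against -0.11 to 0.51 elsewhere in that cohort. The mean of 6 immune genes was 2.68 log2 CPM in that library, the lowest of its cohort, where the others held 3.45 to 5.02. At 8 days it was 4.99 and 4.87 in mutant replicates 3 and 4, which held the lowest values for 7 of 8 members, and 3.29 to 3.95 in the other libraries. The mean of 4 mesentery genes, of fat and mesothelium, was highest at 8 days in control replicate 3 at 2.42 log2 CPM, against -1.21 to 1.53 elsewhere. At 3 months it was highest in control replicate 4 at 3.59, against -1.45 to 2.89 elsewhere, with mutant replicate 3 at 2.83. The part of these other cells in the members' values was not tested.

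**Figure D3:**
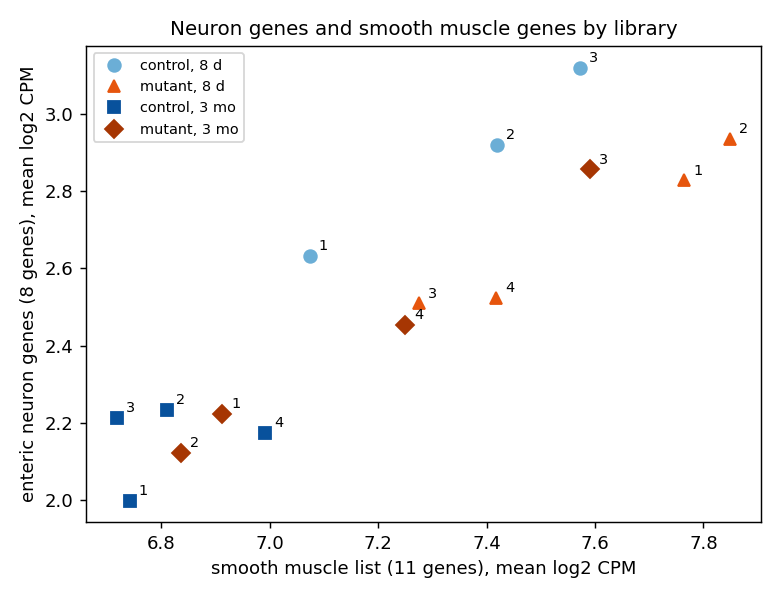
Mean log2 CPM of the 8 enteric neuron genes against that of the 11 smooth muscle genes in each of the 15 libraries, with replicate numbers beside the points. Mutant replicate 3 is the farthest right and highest of the 3-month libraries, and at 8 days the mutants lie to the right of controls of like neuron level.

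Each member (log2 CPM) was correlated with the smooth muscle score within a cohort, controls and mutants together and not centred by group. Of these 16 correlations, 4 passed after adjustment over the 16. At 8 days this was Vip (Pearson r = 0.946, n = 7, exact permutation p = 0.00198, adjusted 0.0317; Spearman rho = 0.964, adjusted 0.0444). At 3 months these were Prph (r = 0.943, n = 8, exact permutation adjusted p = 0.0448; rho = 0.667, adjusted 0.278), Uchl1 (r = 0.918, adjusted permutation p = 0.0415; rho = 0.643, adjusted 0.278) and Elavl4 (r = 0.865, adjusted permutation p = 0.0415; rho = 0.881, adjusted 0.0579). Without the 2 libraries farthest from the median muscle score, mutants 3 and 4 at 3 months, r was 0.241 for Prph, 0.538 for Uchl1 and 0.792 for Elavl4, and none of these 3 passed. At 8 days, without mutants 1 and 2, r was 0.842 for Vip (n = 5, exact permutation p = 0.05, adjusted 0.341), which did not pass. With 5 libraries a pass after adjustment over this family is hard to reach. Vip at 3 months had r = -0.189 (n = 8, exact permutation adjusted p = 0.704) and rho = -0.476 (adjusted 0.324). Its r was -0.672 without mutants 3 and 4. The relations of Prph and Uchl1 at 3 months thus rest on mutants 3 and 4. A difference between controls and mutants in both values can also add to such an r.

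With the smooth muscle score as a covariate the estimates moved down at both times. At 8 days 8 of 8 were then below 0, with a median of -0.39, 6 of 8 at an unadjusted p under 0.05, beside 11.5% of all genes in that fit, and 0 called. The lowest were Tubb3 at -0.57 (SE 0.14, edgeR adjusted p = 0.186), Prph at -0.52 (SE 0.14, edgeR adjusted p = 0.204) and Chat at -0.52 (SE 0.22, edgeR adjusted p = 0.430). At 3 months 3 of 8 stayed above 0, Ret (0.24), Chat (0.21) and Nos1 (0.03), the median was -0.06, 0 of 8 had an unadjusted p under 0.05, beside 21.9% of all genes in that fit, and 0 were called, where 110 of 17085 genes were. Elavl4, Uchl1, Tubb3 and Prph changed sign at 3 months. The difference between the times kept its sign for all 8 members in this fit, with a median of 0.36.

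**Figure D4:**
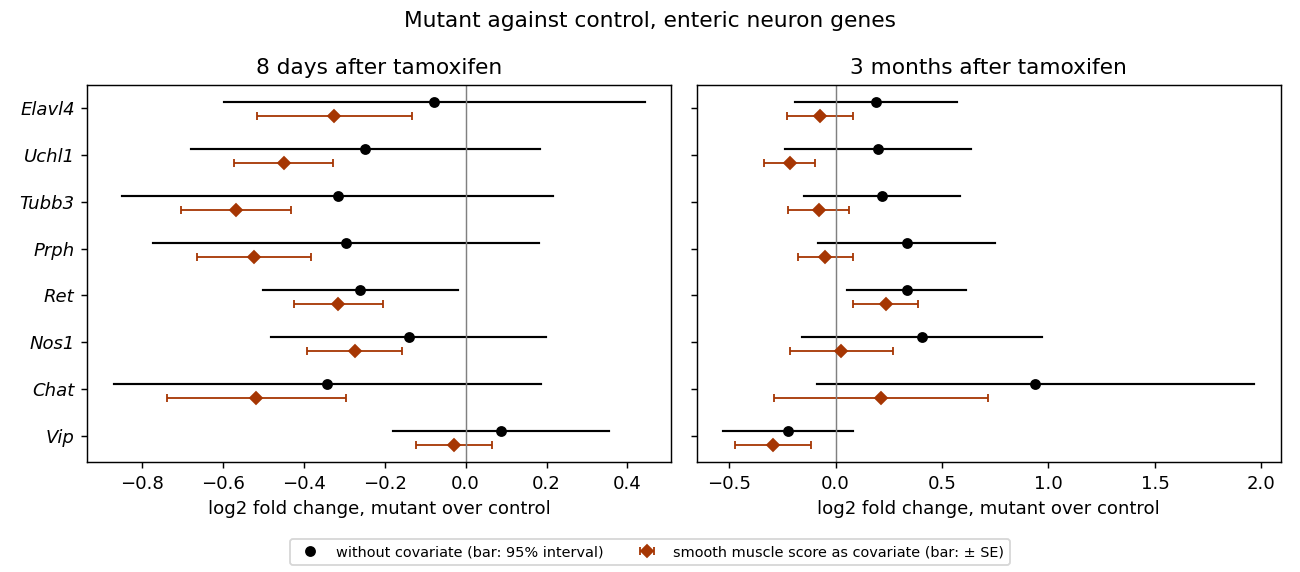
Log2 fold change of mutant over control for the 8 enteric neuron genes at 8 days and 3 months, in black with 95% intervals and in brown, with ± SE, when the smooth muscle score was a covariate. The black intervals span 0 for all but Ret, and at 3 months the brown estimates of Elavl4, Uchl1, Tubb3 and Prph lie below 0. The horizontal scales of the 2 panels differ.

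A comparison of the control genotypes at 3 months found 0 of 8 members called (0% of 17780 genes; 0 of 8 at an unadjusted p under 0.05 beside 6.86%; DESeq2 called 48 genes and none of the 8). The largest estimates, Rfx6f/+ over Rfx6f/f, were Chat at 1.13 (SE 0.64, edgeR adjusted p = 0.760) and Vip at 0.30 (SE 0.17, edgeR adjusted p = 0.759), each with 2 libraries a genotype.

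In 6 wider lists of neural and glial genes (65 genes), 58 were tested at 8 days and 1 was called (1.72% of those tested, beside 0.0915% of all genes), and 55 were tested at 3 months and 6 were called (10.9%, near the 9.28% of all genes). Of those 6, Edn3 and Vipr1 kept the call with the muscle covariate, where 110 of 17085 genes were called. With the 2 Rfx6f/f controls alone 0 of the 6 kept it, where 36 of 17552 genes were called. Other pan-neuronal genes followed the members: 11 of 12 were below 0 at 8 days (median -0.25) and 8 of 11 above 0 at 3 months (median 0.23). Among them Snap25, a SNARE protein of vesicle release that endocrine cells also use, was at 5.63, 5.40, 4.83 and 6.10 CPM in the 3-month controls and 8.18, 8.48, 9.75 and 8.83 in the mutants. The groups did not overlap and Snap25 rose by a log2 fold change of 0.70 (SE 0.11, edgeR adjusted p = 0.0106), which held with any single library left out (adjusted p up to 0.0397) but not with Rfx6f/f controls alone (0.59, adjusted p = 0.135) or the muscle covariate (0.57, adjusted p = 0.0688). At 8 days it was -0.11 (SE 0.17, edgeR adjusted p = 0.940).

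Of the other transmitter and neuropeptide genes, 10 of 14 were below 0 at 8 days with 0 called, and 10 of 13 above 0 at 3 months with 1 called. That gene was Cartpt, the precursor of CART peptide, at 0.82, 0.58, 0.46 and 0.65 CPM in the 3-month controls and 1.26, 1.02, 1.66 and 1.29 in the mutants, a rise of 1.07 (SE 0.23, edgeR adjusted p = 0.0276) on 12 to 24 and 32 to 64 counts. The call was lost without control replicate 2 or 3 or mutant replicate 1 or 3, with adjusted p up to 0.0823. At 8 days Cartpt stood at -0.43 (SE 0.34, edgeR adjusted p = 0.825).

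Among the RET ligands and co-receptors, Gfra3, the co-receptor through which RET binds artemin, was the single gene of the 6 lists called at 8 days. It was at 2.11, 2.39 and 2.66 CPM in controls and 0.69, 0.94, 0.61 and 0.83 in mutants, a fall by 1.64 on the log2 scale (SE 0.20, edgeR adjusted p = 0.0265). At 3 months controls had 1.67, 2.23, 1.27 and 2.14 CPM and mutants 0.79, 0.64, 1.09 and 0.42, a fall by 1.28 (SE 0.30, edgeR adjusted p = 0.0335). The groups separated both times. The call was lost without any of 6 of the 7 libraries at 8 days (adjusted p up to 0.165) and without any of 7 of the 8 at 3 months (adjusted p up to 0.0921), while the estimate stayed between -1.76 and -1.09. In the same comparisons 3 of 12 enteroendocrine genes were called lower at 8 days, and at 3 months 6 were called lower and 4 higher. Which cell type the Gfra3 counts came from was not tested.

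Among the regulators of the enteric lineage, 5 of 8 were below 0 at 8 days with 0 called, and 5 of 7 above 0 at 3 months with 1 called. Edn3, the ligand endothelin 3, was at 67.4, 63.2, 66.2 and 43.9 CPM in the 3-month controls and 24.1, 31.5, 19.9 and 24.3 in the mutants, and fell by 1.26 (SE 0.17, edgeR adjusted p = 0.00707), a call lost with Rfx6f/f controls alone (-1.15, adjusted p = 0.114). At 8 days it was 29.7, 32.9 and 30.6 CPM in controls and 31.9, 22.8, 25.1 and 25.6 in mutants, with overlapping groups and a log2 fold change of -0.24 (SE 0.11, edgeR adjusted p = 0.608). The difference between the times was -1.03 (SE 0.22, edgeR adjusted p = 0.0496), beside 3-month controls that were all above the 8-day controls. The call for this difference was lost with limma-voom (-1.03, adjusted p = 0.0590), RLE scaling (-1.02, adjusted p = 0.0530), Rfx6f/f controls alone (-0.91, adjusted p = 0.244) and when any of 11 of the 15 libraries was left out (adjusted p up to 0.131), with values from -1.17 to -0.91 over all 15.

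Receptors and targets of the enteric transmitters were above 0 for 8 of 9 at 3 months (median 0.43) and for 3 of 9 at 8 days (median -0.01). Vipr1, a VIP receptor abundant in the epithelium, was at 147, 138, 181 and 140 CPM in the 3-month controls and 292, 250, 210 and 213 in the mutants, a rise of 0.69 (SE 0.13, edgeR adjusted p = 0.0178). Chrm3, a muscarinic acetylcholine receptor of muscle and epithelium, was at 2.29, 2.69, 2.34 and 2.62 CPM in the 3-month controls and 3.21, 3.33, 4.36 and 3.82 in the mutants, a rise of 0.58 (SE 0.14, edgeR adjusted p = 0.0368). Neither group pair overlapped. The Vipr1 call was lost without control replicate 1 or 2 (adjusted p up to 0.0586), and the Chrm3 call without any of 6 of the 8 libraries (adjusted p up to 0.103), without a filter on low counts (0.58, adjusted p = 0.0534) and with the muscle covariate (0.38, adjusted p = 0.167). Beside these, Ano1, the chloride channel that marks interstitial cells of Cajal, the pacemaker cells of gut muscle, rose by 0.61 (SE 0.16, edgeR adjusted p = 0.0454), with overlapping groups and the call lost without any of 6 of the 8 libraries (adjusted p up to 0.117). With the muscle covariate Ano1 stood at 0.31 (adjusted p = 0.174) and with Rfx6f/f controls alone at 0.50 (adjusted p = 0.289). It was the single gene called of the 3 for those cells, with Kit at 0.34 (SE 0.13, edgeR adjusted p = 0.125) and Etv1 at 0.04 (SE 0.13, edgeR adjusted p = 0.867).

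The genes most like the members in how they varied were sought outside all lists, by the correlation of log2 CPM centred within each of the 4 groups with the mean of the likewise centred members over 15 libraries. They were Sh3bgr (r = 0.974), Synm (0.957), Flna (0.953), Kif5a (0.950) and Napb (0.943). Synm encodes the muscle intermediate filament protein synemin, Flna the actin crosslinker filamin A, and Kif5a a neuronal kinesin motor. The members themselves, each of which is part of that mean, ranged from 0.931 for Prph, 0.926 for Uchl1 and 0.910 for Tubb3 through 0.762 for Elavl4, 0.722 for Chat, 0.701 for Nos1 and 0.621 for Vip to 0.540 for Ret. None of the 5 was called at either time, with log2 fold changes from -0.20 (Napb) to 0.22 (Synm) at 8 days and from 0.28 (Kif5a) to 0.46 (Napb) at 3 months.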

How the data were processed

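The files hold unnormalized read counts for each Ensembl gene as deposited, 1 table per cohort and 1 column per animal. Per the submitters' processing notes the tools named were bcl2fastq 2.17.1.14, Bowtie 1.0.0, TopHat2 2.0.10, Bowtie2 2.1.0 and HTSeq 0.6.1, with mm9; the strand setting is not given in the sources used here. Per the labels' protocols, total RNA was extracted by either of 2 methods, not given per sample, and ribosomal RNA was depleted, while the molecule label names polyA RNA. The labels do not pair animals.

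Symbols for 32897 identifiers (87.4%) and exon lengths came from GENCODE M21 and the upstream windows from RefSeq starts, both on GRCm38. Each time was fitted alone in R 4.3.3 with edgeR 4.0.16 (legacy quasi-likelihood, filterByExpr with a minimum count of 10, TMM scaling, Benjamini-Hochberg over all genes, two-sided, threshold 0.05), with DESeq2 1.42.0 and limma 3.58.1 (voom) as alternatives; the scripts were tested on simulated data. The difference between times was an interaction contrast over 15 libraries. Log2 CPM for scores used a pseudocount of 0.5 counts. Correlations with the muscle and tuft scores used exact permutations over all libraries of a cohort, not centred by group.

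The 8 genes and the 13 other lists (119 genes) were chosen with earlier results of these data known. Named were the 8 genes, Rfx6, list genes called at either time and the 5 genes most like the members. Kit and Etv1, not called, are given beside Ano1 to complete that list. Enteroendocrine and immune genes that met the rule are given as lists or left out. Slc18a3, counted in its list, was not matched by symbol to any identifier and has no result here. Figures were drawn with matplotlib 3.10.9.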

Additional observations from a re-analysis of the deposited data

Results flagged for a closer look

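In 60 checks for a single library lying apart within its group, 2 were positive, where chance gives about 1 in 20. Rfx6 in mutant replicate 1 at 3 months stood at 3.34 CPM against 2.26 to 2.31 in the other 3 mutants. Ano1, the marker of interstitial cells of Cajal, stood at 26.5 CPM in control replicate 4 at 3 months against 19.96 to 20.3 in the other 3 controls. None of the 8 enteric neuron genes stood out in this way. The 8-day controls, with 3 libraries, were not checked. Edn3 had an effect that differed between the 2 times by -1.03 on the log2 scale (edgeR adjusted p = 0.0496), lower in the 3-month mutants.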

How the results depend on the processing

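The count of enteric neuron genes called stayed at 0 at both times and between control genotypes under every alternative run, over 8 tested genes except with 10 counts in every library, which left 7 at 3 months. For the difference between times it was 0 except 1, Ret, with DESeq2 and without mutant replicate 4 of 3 months (range 0 to 1 over left-out libraries). Of the members' estimates under alternatives, 132 at 8 days kept their direction and call and 4 reversed: Elavl4 without control replicate 2 or mutant replicate 3 or 4 (range over left-out libraries -0.21 to 0.072), and Vip with the muscle covariate (-0.029). At 3 months 147 kept theirs and 4 reversed, all with the muscle covariate: Elavl4 (-0.072), Uchl1 (-0.21), Tubb3 (-0.079) and Prph (-0.048). Between control genotypes, leaving out a control reversed 9 estimates, with ranges of -0.30 to 0.25 for Elavl4, -0.098 to 0.032 for Ret, -0.51 to 0.10 for Nos1, -0.25 to 0.17 for Uchl1, -0.0068 to 0.056 for Tubb3 and -0.050 to 0.0082 for Prph. The wider lists' calls at 3 months went from 6 to 12 with DESeq2, 10 in one fit of all libraries, 2 with the muscle covariate and 0 with Rfx6f/f controls alone, and ranged from 2 to 6 over left-out libraries; at 8 days the range was 0 to 1 around 1. Correlations with muscle without the 2 farthest libraries were 0.792 (Elavl4), 0.538 (Uchl1), 0.241 (Prph), -0.114 (Chat) and -0.214 (Tubb3) at 3 months and 0.842 (Vip) at 8 days. With all 3-month libraries r was 0.740 for Chat (exact permutation adjusted p = 0.108) and 0.875 for Tubb3 (adjusted 0.0789). Chat against tuft genes, without the 2 libraries farthest from the median tuft score, was 0.459 at 3 months.

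Calls over all genes at 8 days were 16, and 178 with DESeq2, 27 unfiltered, 25 in one fit and 8 to 200 over left-out libraries. At 3 months they were 1586, and 2983 with DESeq2, 110 with the muscle covariate, 36 with Rfx6f/f controls and 391 to 1521 over left-out libraries. For the difference they were 141, and 1017 with DESeq2, 41 with limma-voom, 223 unfiltered, 248 with 10 counts in every library, 5 with Rfx6f/f controls and 10 to 749 over left-out libraries. Where 1 control genotype is left with 1 library, its spread is assumed like that of the other groups. The newer edgeR fit, the left-out controls of the genotype comparison and the tuft relation were added after seeing the data. No paired analysis was possible because the labels carry no replicate numbers and pair no animals. The replicate numbers used here follow the order of the samples within each group and link no animals between groups. Chat, at 8 to 27 counts in the 3-month controls, has a 3-month interval of -0.09 to 1.97. The causes of these shifts were not tested.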
